A study of Mus musculus with 6 samples.

Results

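Solute carriers are the membrane proteins, numbered by the Slc family scheme, that move sugars, amino acids, peptides, ions, metals, vitamins and other small molecules across cell membranes. The genes described here are the rows of the count table whose mouse symbol begins with Slc and a number, without the mitochondrial Slc25 carriers and without the scaffold genes Slc9a3r1 and Slc9a3r2. The rule found 332 such genes among 24594 in the table, and the 204 with 20 or more counts in at least 3 of the 6 libraries are reported. They come from 49 Slc families. Many work at the plasma membrane, but the rule also takes carriers of internal membranes, such as the Golgi nucleotide sugar carriers of family Slc35, and 3 genes that carry the name without being carriers (Slc2a4rg-ps, Slc4a1ap and Slc7a6os).

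RNA was sequenced from adult mouse organoids, epithelial structures grown in gel from crypts of the proximal small intestine, with EGF, Noggin and R-spondin1. All 6 libraries came from the genotype TetON-hYAP/H2B-mCherry, in which doxycycline switches on a human YAP transgene, described in the design text as the constitutively active S127A mutant, and a red fluorescent histone. The 3 doxycycline libraries had 1 µg/ml doxycycline for 48 h from passaging, and the 3 control libraries had none. YAP is a transcriptional coactivator that the Hippo kinases hold in check. The labels give 1 mouse as the source of a sample's crypts but do not say whether libraries of a group came from separate mice or cultures. So p-values measure the spread between these libraries. No library had doxycycline without the transgene, so the drug and YAP cannot be told apart. The samples are bulk RNA, in which fewer cells of a type and less RNA per cell cannot be told apart.

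Absorbing enterocytes of the small intestine take up sugars, amino acids, peptides and ions at the brush border, mostly with sodium or protons, and release them to the blood through a second set of carriers in the basolateral membrane. The sodium pump keeps up the sodium gradient. Crypt cells, which divide and secrete chloride and fluid, use a different set.

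Total counts ran from 11258768 to 16803062 in the doxycycline libraries and from 8533452 to 14643817 in the control libraries. The 332 carriers held 2.00 to 2.08% of the counts with doxycycline and 1.40 to 1.82% in controls. All 8 epithelial markers were detected, and 5 of them rose and 1 fell (summed level 17878 to 19065 CPM with doxycycline, 4619 to 5273 CPM in controls). Markers of mesenchymal, immune and endothelial cells summed to at most 0.607, 8.07 and 2.26 CPM in any library, with Col1a1, Dcn and Kdr at 0 counts. Of 11 enterocyte markers that are not carriers, 9 rose and 0 fell (summed level 19898 to 21134 CPM with doxycycline, 2665 to 4352 CPM in controls). All 5 crypt base stem cell markers fell (43.99 to 50.3 CPM, against 3886 to 5332 CPM) and so did all 4 Paneth cell markers (31.2 to 34.8 CPM, against 2171 to 4392 CPM). Of the goblet cell markers 4 of 5 fell. The sum over all 5 was 821 to 1204 CPM with doxycycline and 344 to 1349 CPM in controls, mostly from Fcgbp, and the other 4 (Muc2, Tff3, Spdef and Atoh1) summed to 0.283 to 0.708 CPM with doxycycline and 66.7 to 78.9 CPM in controls. Of the enteroendocrine markers 3 of 5 fell (180.3 to 212 CPM, against 299 to 551 CPM). The part of these cell types in the carrier results was not tested. Control replicate 3 stood apart: its log2 CPM correlated at 0.916 and 0.919 with the other controls, which correlated with each other at 0.991, as a description over 12909 genes. Among the 67 carriers with the longest merged exons its median log2 ratio to the other controls was -0.42, and 0.11 among the 67 with the shortest.

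With doxycycline, 76 of the 204 carriers rose and 41 fell. A gene is said to have risen or fallen where edgeR's quasi-likelihood test gave an adjusted p under 0.05 over all 12909 genes tested. Of all genes, 21.7% rose and 23.6% fell, so the share that fell among carriers (20.1%) was near the background, and the share that rose was 37.3%. Without 11 carriers that met the count minimum in 1 group alone, and so had to differ, 70 of 193 rose (36.3%) and 36 fell (18.7%). The median log2 fold change was 0.35 over the carriers and -0.082 over all genes. Levels are in CPM, the counts of a gene relative to the TMM-scaled size of its library. With total counts as the only scaling, 52 carriers rose and 64 fell and their median was -0.087, against -0.52 for all genes, of which 13.5% rose and 39.7% fell. Without control replicate 3, 101 of the 204 carriers rose and 61 fell, in a fit where 34.9% of all genes rose and 35.1% fell. None of the 117 called carriers changed sign under any scaling or with any library left out. Rises of at least 2-fold numbered 51 of 204 and falls of at least 2-fold 28, against 15.3% and 17.5% of all genes. Without the same 11 carriers they numbered 45 and 23 of 193. Both directions occurred within 15 of the 49 families, 26 families had rises alone, 6 had falls alone and 2 had neither. For 150 carriers (73.5%) every doxycycline library lay on one side of every control, against 61.3% of all genes. Without the 11 that had to differ, this held for 139 of 193 (72.0%). Of the 204 carriers, 43 share over 5% of their exon length with another gene.

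**Figure D1:**
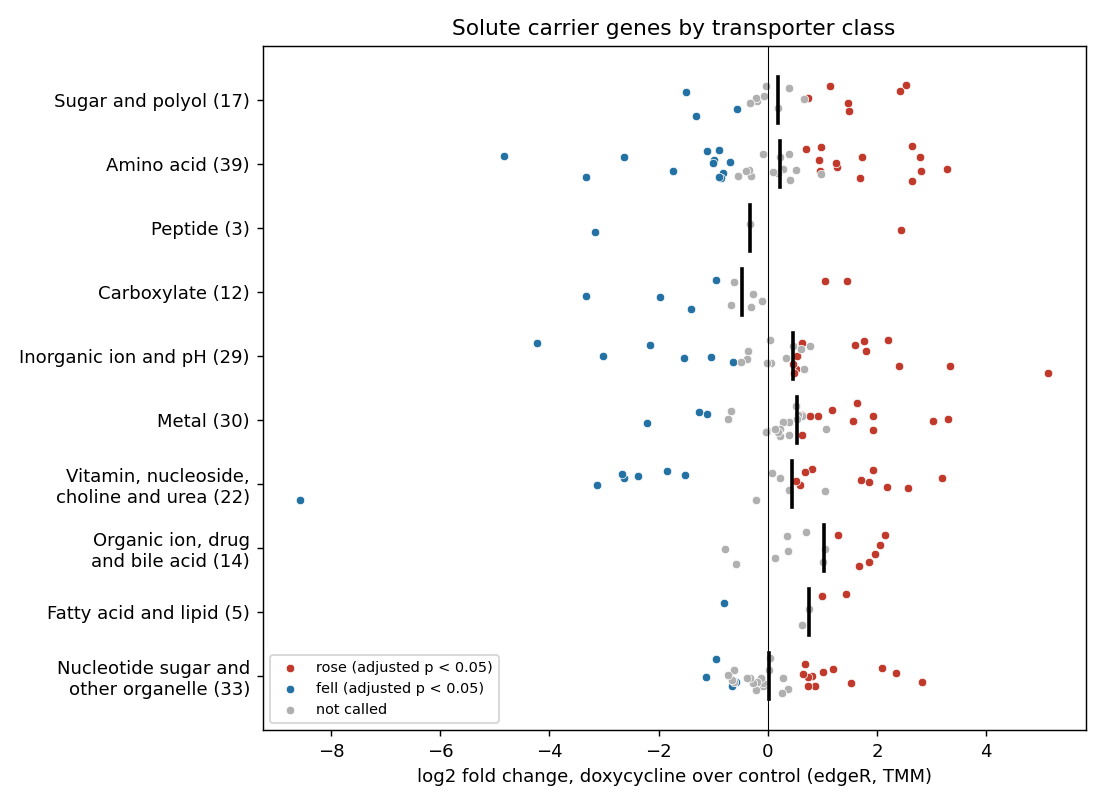
log2 fold change of doxycycline over control for each of the 204 reported carriers, 1 point per gene, by transporter class with the number of genes in brackets; black bars are class medians. Called genes lie on both sides of 0 in every class except that of organic ion, drug and bile acid carriers, where 6 rose and 0 fell; the point at -8.57 is Slc14a1, whose doxycycline libraries held 0 counts and whose fitted value is no bound.

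In all, 6 genes passed the count minimum through the doxycycline libraries alone and 5 through the control libraries alone, as counted above. They were Slc12a4, Slc8a3, Slc41a3, Slc38a3, Slc7a3 and Slc7a15 on the high side and Slc14a1, Slc7a2, Slc6a7, Slc28a1 and Slc13a2 on the low side. Just inside the minimum was Slc38a3, with 20, 39 and 34 counts with doxycycline and 8, 1 and 6 in controls. Among those just outside was Slc4a11 (21, 22 and 15 counts with doxycycline, 8, 8 and 7 in controls). Slc22a3 (2, 3 and 9, against 47, 39 and 11) was further below the minimum. The urea channel gene Slc14a1 had 0 counts in all doxycycline libraries and 160 over the controls, at least 46.4-fold lower against a floor of 3 counts over the group.

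Per kilobase of merged exons, which allows genes to be ranked, the taurine carrier Slc6a6 stood first of the 201 carriers with a known exon length in the doxycycline libraries, at 251 ± 14.5 CPM per kilobase, and rank 4 in the controls, at 75.8 ± 24.1. The iron exporter Slc40a1 stood next with doxycycline (154 ± 9.23 CPM per kilobase, against 18.8 ± 2.16 in controls), followed by the creatine carrier Slc6a8 (148 ± 14.2, against 15.2 ± 3.93). These 2 did not differ beyond their spread with doxycycline. In the controls the chloride importer Slc12a2 stood first (97.4 ± 32.1 CPM per kilobase), and it was at 12 ± 0.977 with doxycycline. Its neighbour in that order, Slc35g1 of the nucleotide sugar carrier family, had 77 ± 4.77 with doxycycline and 96.7 ± 32.2 in controls. In controls these neighbours lay within each other's spread. Slc6a6 and Slc35g1 are named with their values already known.

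The largest fitted rise among carriers with a mean of at least 5 CPM was that of Slc6a8 (chromosome X, 73673133 to 73682502, GRCm38.p6), which brings creatine into the cell. Slc6a8 had 693, 839.8 and 779 CPM with doxycycline, against 90.1, 91.7 and 55.5 CPM in controls. All doxycycline libraries lay above all controls (log2 fold change 3.28, SE 0.249, adjusted p = 1.64e-04). The largest fall was that of Slc7a2 (chromosome 8, 40862341 to 40922070), a carrier of the cationic amino acids arginine, lysine and ornithine. Slc7a2 had 0.405, 0.74 and 0.424 CPM with doxycycline, against 20.8, 15.8 and 8.35 CPM in controls. Its fitted log2 fold change was -4.83 (SE 0.476, adjusted p = 4.14e-04). Slc7a2 met the count minimum through its control counts alone and so had to differ. Of carriers that met the minimum in both groups, Slc12a8 had the largest fitted fall (log2 fold change -4.23).

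YAP is known to act through the TEAD transcription factors. Promoter windows of strongly changed carriers were searched for the TEAD motif GGAATG on either strand. Windows run from 250 bases before to 50 after the annotated start, on the gene's strand, from RefSeq (GRCm38.p6). Slc6a8, Slc40a1 and Slc7a2 had no entry. The next 3 rises and 3 falls with one are shown so that the letters can be read beside the values, with matches in capitals (CATTCC is the motif read from the other strand). Slc28a2, Slc35e4 and Slc7a9 rose, and Slc12a8, Slc16a12 and Slc1a3 fell.
Slc28a2 (chr2:122426185-122426484, plus strand): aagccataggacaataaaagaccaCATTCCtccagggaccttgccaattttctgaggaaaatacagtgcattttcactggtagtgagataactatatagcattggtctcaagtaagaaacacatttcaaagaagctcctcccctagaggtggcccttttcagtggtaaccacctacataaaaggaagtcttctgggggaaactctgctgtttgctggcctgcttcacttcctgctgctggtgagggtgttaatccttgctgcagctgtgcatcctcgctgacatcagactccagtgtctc
Slc35e4 (chr11:3914615-3914914, minus strand): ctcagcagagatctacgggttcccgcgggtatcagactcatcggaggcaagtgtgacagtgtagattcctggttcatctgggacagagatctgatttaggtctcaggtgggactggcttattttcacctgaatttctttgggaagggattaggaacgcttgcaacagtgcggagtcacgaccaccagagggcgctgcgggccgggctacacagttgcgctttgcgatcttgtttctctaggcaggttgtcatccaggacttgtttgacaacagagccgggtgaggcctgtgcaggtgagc
Slc7a9 (chr7:35448842-35449141, plus strand, the first of 2 windows): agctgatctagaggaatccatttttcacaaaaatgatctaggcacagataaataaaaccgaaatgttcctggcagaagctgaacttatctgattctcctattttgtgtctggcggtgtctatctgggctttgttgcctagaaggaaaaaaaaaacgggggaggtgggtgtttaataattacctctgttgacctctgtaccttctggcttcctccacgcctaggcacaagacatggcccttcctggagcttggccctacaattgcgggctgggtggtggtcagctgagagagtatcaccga
Slc12a8 (chr16:33517945-33518244, plus strand, the only one of 3 windows with a match): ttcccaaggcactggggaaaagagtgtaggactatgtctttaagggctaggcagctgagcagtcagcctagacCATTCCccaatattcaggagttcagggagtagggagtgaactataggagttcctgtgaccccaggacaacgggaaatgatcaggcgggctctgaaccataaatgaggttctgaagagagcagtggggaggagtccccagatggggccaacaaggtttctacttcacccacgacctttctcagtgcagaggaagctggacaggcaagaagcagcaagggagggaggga
Slc16a12 (chr19:34747279-34747578, minus strand): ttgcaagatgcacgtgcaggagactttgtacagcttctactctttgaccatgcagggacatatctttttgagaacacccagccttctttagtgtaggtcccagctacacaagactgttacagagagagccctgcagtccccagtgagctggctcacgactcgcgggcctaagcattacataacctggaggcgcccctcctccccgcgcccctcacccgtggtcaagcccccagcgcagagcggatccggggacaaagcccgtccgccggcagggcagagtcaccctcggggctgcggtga
Slc1a3 (chr15:8710758-8711057, minus strand): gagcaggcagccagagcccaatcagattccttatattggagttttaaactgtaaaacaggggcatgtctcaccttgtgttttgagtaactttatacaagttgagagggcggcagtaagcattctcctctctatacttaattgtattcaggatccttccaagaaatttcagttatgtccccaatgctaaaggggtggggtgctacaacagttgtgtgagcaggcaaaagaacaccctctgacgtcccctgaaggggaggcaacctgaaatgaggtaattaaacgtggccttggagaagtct
The match in Slc28a2 began at position -226 from the start and that in Slc12a8 at -177. Among all 32851 windows of the table, 14.7% held a match. A window was available for 154 of the 204 carriers. By gene, 11 of 56 carriers that rose (19.6%), 8 of 31 that fell (25.8%) and 11 of 67 not called (16.4%) had a match in any window. The share was 16.6% over all 27025 genes with a window, whether or not they were tested here. These shares are a description.

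Among 39 amino acid carriers 14 rose (35.9%) and 12 fell (30.8%), against 21.7% and 23.6% of all genes. These counts include genes that met the count minimum in 1 group alone and so had to differ. They were Slc7a3, Slc7a15 and Slc38a3 among the rises and Slc7a2 and Slc6a7 among the falls. Their median log2 fold change was 0.22, and -0.22 when scaled by total counts. The pair that forms the brush border exchanger of cystine and cationic amino acids rose together. Slc3a1, its heavy chain, had 213, 263 and 267 CPM with doxycycline, against 76, 82.2 and 66 CPM in controls (log2 fold change 1.73, SE 0.177, adjusted p = 4.25e-04). Slc7a9, its light chain, had 26.1, 38.2 and 33.9 CPM with doxycycline, against 5.97, 6.16 and 3.52 CPM in controls (log2 fold change 2.64, SE 0.281, adjusted p = 5.48e-04). Neither gene's groups overlapped. Of the exons of Slc3a1, 26.5% are shared with Prepl on the opposite strand, which also rose (log2 fold change 1.28), and with the strand setting unknown the counts of both are uncertain.

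The other heavy chain, Slc3a2 (4F2hc), carries a set of light chains whose genes split. Slc3a2 itself had 211, 228 and 228 CPM with doxycycline, against 151, 148 and 209.7 CPM in controls and did not pass (log2 fold change 0.39, SE 0.187, adjusted p = 0.127). Slc7a7, the basolateral exporter of cationic amino acids, had 197, 189.9 and 191 CPM with doxycycline, against 51.5, 61.1 and 65.9 CPM in controls, with no overlap (log2 fold change 1.69, SE 0.161, adjusted p = 3.24e-04). In the other direction, Slc7a5 (LAT1), which imports large neutral amino acids, had 114, 111 and 105 CPM with doxycycline, against 229, 227 and 201 CPM in controls, again with no overlap (log2 fold change -0.99, SE 0.148, adjusted p = 0.00193). Slc7a8 (LAT2), a basolateral exchanger of neutral amino acids, had 48.5 ± 2.12 CPM with doxycycline and 97 ± 18.9 CPM in controls (SD, n = 3 each) and fell (log2 fold change -1.0, SE 0.187, adjusted p = 0.00498). Slc7a11 (xCT), which imports cystine for glutathione synthesis, had 349.9, 381 and 417 CPM with doxycycline, against 266, 240.3 and 77.1 CPM in controls; only control replicate 3 lay far below the others, and the gene did not pass (log2 fold change 0.98, SE 0.428, adjusted p = 0.103). Without that library Slc7a11 passed at a log2 fold change of 0.61 (adjusted p = 1.88e-06) and Slc3a2 at 0.59 (adjusted p = 1.27e-06); with total counts Slc3a2 was at -0.051.

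**Figure D2:**
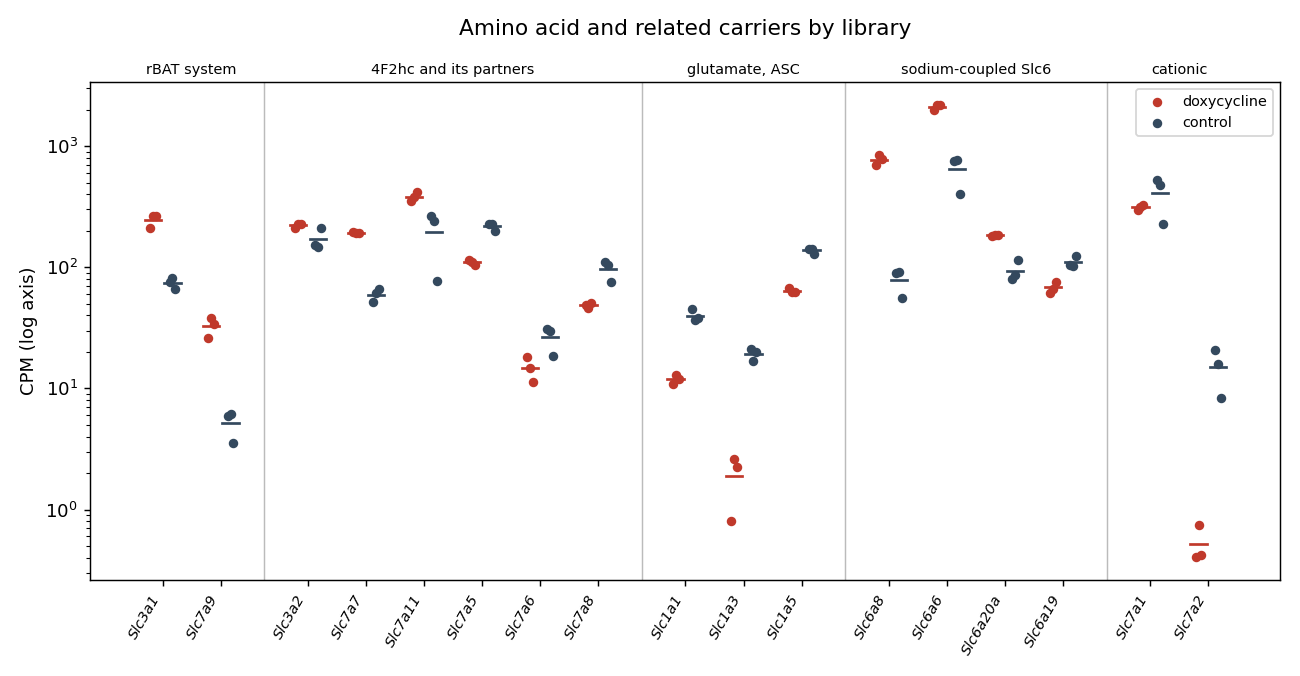
CPM on a log axis of amino acid, taurine and creatine carriers in each library; points are libraries (doxycycline left of control for each gene) and bars are group means. Slc3a1, Slc7a9 and Slc7a7 sit higher with doxycycline while Slc7a5, Slc7a8 and the Slc1 genes sit lower, and control replicate 3 is the low control point of Slc7a11 (77.1 CPM) and Slc7a1 (227 CPM).

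Family Slc1, the glutamate and neutral amino acid carriers, had 3 falls among 4 reported genes (75%) and no rise. Of all genes, 23.6% fell and 21.7% rose. Slc1a3, a glutamate carrier best known from glial cells, had 0.809, 2.59 and 2.26 CPM with doxycycline, against 21.2, 16.7 and 19.8 CPM in controls (log2 fold change -3.33, SE 0.395, adjusted p = 8.37e-04). Slc1a1, the main epithelial glutamate carrier, which shares 31.9% of its exon length with 4430402I18Rik on the opposite strand, had 10.9, 13 and 11.9 CPM with doxycycline, against 45, 36.6 and 38 CPM in controls (log2 fold change -1.74, SE 0.174, adjusted p = 3.94e-04). Slc1a5, which imports glutamine, had 67.3, 61.9 and 62.9 CPM with doxycycline, against 143, 142 and 129.6 CPM in controls (log2 fold change -1.11, SE 0.142, adjusted p = 0.00104). In each of them every doxycycline library lay below every control. The fourth gene, Slc1a4, which was named after its values were seen, had 164 ± 6.63 CPM with doxycycline and 203 ± 58.6 CPM in controls (SD, n = 3 each) and did not pass (adjusted p = 0.334).

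Of the sodium-coupled family Slc6, the taurine carrier Slc6a6 had 1977, 2196 and 2184 CPM with doxycycline, against 752, 766 and 406 CPM in controls (log2 fold change 1.72, SE 0.269, adjusted p = 0.00248), with no overlap. The imino acid carrier Slc6a20a had 183 ± 3.28 CPM with doxycycline and 93.9 ± 18.7 CPM in controls (log2 fold change 0.97, SE 0.184, adjusted p = 0.00525); its close copy Slc6a20b, named after its values were seen, rose as well (185 ± 7.22 CPM with doxycycline and 96.7 ± 11.4 CPM in controls), and the counts of both are uncertain. Slc6a19, the main brush border carrier of neutral amino acids, moved against them, with 61.7, 66.3 and 76.2 CPM with doxycycline, against 105, 103 and 124 CPM in controls. It fell (log2 fold change -0.70, SE 0.163, adjusted p = 0.012), but the adjusted p was 0.0634 without doxycycline replicate 1 and 0.0669 without doxycycline replicate 2.

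Slc7a1, Slc38a1 and Slc38a2, which serve most cells, did not pass with all 6 libraries. Slc7a1, the general arginine importer, had 298, 313 and 325 CPM with doxycycline, against 526, 475 and 227 CPM in controls, and the groups overlapped through control replicate 3. Slc38a1 had 164 ± 2.62 CPM with doxycycline and 209 ± 71.9 CPM in controls and Slc38a2, which takes up glutamine and alanine and is induced by amino acid shortage, had 469 ± 15.7 CPM with doxycycline and 329 ± 84.7 CPM in controls (SD, n = 3 each). The adjusted p were 0.335, 0.334 and 0.0992. Without control replicate 3 the log2 fold changes were -0.67, -0.59 and 0.33, with adjusted p of 1.08e-07, 6.86e-07 and 3.61e-04.

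Among the 3 peptide carriers, 1 rose and 1 fell (33.3% each), against 21.7% and 23.6% of all genes. Slc15a1 (chromosome 14, 121459621 to 121505254), the proton-coupled brush border carrier of di- and tripeptides, had 55.1, 59.5 and 54.9 CPM with doxycycline, against 10.1, 11.5 and 9.46 CPM in controls (log2 fold change 2.44, SE 0.163, adjusted p = 1.01e-04). The lysosomal peptide and histidine carrier Slc15a3 went the other way, with 3.13, 1.3 and 2.83 CPM with doxycycline, against 18.1, 21.4 and 25.8 CPM in controls (log2 fold change -3.16, SE 0.353, adjusted p = 6.58e-04). Neither gene's groups overlapped. Of the exons of Slc15a3, 28.1% are shared with Tmem132a on the opposite strand, which fell by 3.01 on the log2 scale, so the source of these reads is uncertain. The lysosomal carrier Slc15a4, named after its values were seen, had 22 ± 2.03 CPM with doxycycline and 27.6 ± 1.95 CPM in controls and did not pass. Across the 6 libraries the reported carriers whose log2(CPM + 1) followed that of Slc15a1 most closely were Slc40a1 (Pearson r = 0.999), Slc44a4 (0.998) and Slc5a9 (0.997). This is a description over points that fall into the 2 groups.

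In the sugar class 6 of 17 genes rose (35.3%) and 3 fell (17.6%), against 21.7% and 23.6% of all genes. The class median was 0.18, and -0.27 with total counts as the scaling. The carriers best known for dietary sugar uptake did not pass. Slc5a1 (SGLT1), which takes up glucose and galactose with sodium at the brush border, had 107, 133 and 139.7 CPM with doxycycline, against 182, 151 and 145 CPM in controls (log2 fold change -0.34, SE 0.18, adjusted p = 0.167). All doxycycline values lay below the controls, by less than the test required. Slc2a2 (GLUT2), the basolateral glucose exit, had 20.2, 31.3 and 30.5 CPM with doxycycline, against 32.2, 17.2 and 22.8 CPM in controls (log2 fold change 0.18, SE 0.286, adjusted p = 0.639), and the groups overlapped. For Slc2a5 (GLUT5), the fructose carrier, the values were 26.8, 29.9 and 30.7 CPM with doxycycline, against 25.4, 22.7 and 53.5 CPM in controls (log2 fold change -0.21, SE 0.337, adjusted p = 0.633). Without control replicate 3, Slc5a1 was called lower at -0.38 (adjusted p = 0.00583) and Slc2a5 turned to 0.29 (adjusted p = 0.0452); the log2 fold change of Slc2a2 was -0.011 without control replicate 2 and -0.27 with total counts.

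Slc2a1 (GLUT1), the glucose carrier of most dividing cells, rose (317, 376 and 356 CPM with doxycycline, against 104, 108 and 166 CPM in controls; log2 fold change 1.47, SE 0.227, adjusted p = 0.00239). So did Slc5a9, a sodium-coupled carrier of mannose and fructose, with 54.5, 57.1 and 51.1 CPM with doxycycline, against 20.4, 19.3 and 18.3 CPM in controls (log2 fold change 1.49, SE 0.148, adjusted p = 3.89e-04). Both had no overlap between groups. Slc5a4b, a relative of SGLT1, fell (12.2 ± 1.5 CPM with doxycycline and 34.4 ± 2.56 CPM in controls; log2 fold change -1.49, adjusted p = 7.33e-04). The fall of Slc50a1, a Golgi sugar carrier (3.37 ± 0.495 CPM with doxycycline and 8.4 ± 3.48 CPM in controls; log2 fold change -1.31, adjusted p = 0.0209), was not called without doxycycline replicate 1, 2 or 3, at adjusted p of 0.073, 0.0572 and 0.0868. Sugar is not the substrate of every gene numbered in these families: Slc5a6, the sodium-coupled carrier of biotin and pantothenate, had 139.9, 141 and 135 CPM with doxycycline, against 19.8, 23.1 and 28.9 CPM in controls (log2 fold change 2.54, SE 0.188, adjusted p = 1.40e-04), a clear separation. Slc45a3, a member of the sugar and proton symporter family, rose (48.8 ± 3.85 CPM with doxycycline and 9.06 ± 2.75 CPM in controls; log2 fold change 2.43, adjusted p = 4.50e-04), and 13.5% of its exons are shared with another gene model, Gm29103.

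Among 30 metal carriers 11 rose (36.7%) and 3 fell (10%), against 21.7% and 23.6% of all genes (median 0.53). The rises include Slc41a3, which met the count minimum in the doxycycline libraries alone and so had to differ. With total counts as the scaling 7 were higher and 5 lower, where 13.5% of all genes rose and 39.7% fell. Without control replicate 3, 19 were higher and 4 lower, where 34.9% of all genes rose and 35.1% fell. The carriers of both steps of iron absorption rose. Slc11a2 (DMT1, chromosome 15, 100387898 to 100424209), which takes up ferrous iron at the brush border, had 636, 756 and 729 CPM with doxycycline, against 259, 245 and 213 CPM in controls (log2 fold change 1.56, SE 0.165, adjusted p = 4.79e-04). Slc40a1 (ferroportin, chromosome 1, 45908070 to 45926532), the basolateral iron exporter, had 1292, 1402 and 1454 CPM with doxycycline, against 169, 189 and 149.9 CPM in controls (log2 fold change 3.03, SE 0.173, adjusted p = 6.63e-05). In both, all doxycycline values were above all control values. Of genes that work with them, the ferroxidase Heph rose (176 ± 1.98 CPM with doxycycline and 55.4 ± 3.74 CPM in controls; log2 fold change 1.67, adjusted p = 2.41e-04) and so did the transferrin receptor Tfrc (565 ± 29.3 CPM with doxycycline and 364 ± 84.1 CPM in controls; adjusted p = 0.0422). The call of Tfrc was lost with total counts (adjusted p = 0.457) and without control replicate 1 or any doxycycline library (0.071 to 0.131). The brush border ferric reductase Cybrd1 fell, with 25.1, 31.3 and 24.9 CPM with doxycycline, against 128, 77.6 and 73.8 CPM in controls (log2 fold change -1.78, SE 0.26, adjusted p = 0.00189). The iron store gene Fth1 had 1697 ± 82.6 CPM with doxycycline and 1236 ± 397 CPM in controls and did not pass (adjusted p = 0.162).

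Zinc carriers moved in both directions. Slc39a4 (ZIP4), the brush border zinc importer, had 54.5, 54.9 and 53.3 CPM with doxycycline, against 12.5, 14.7 and 15.8 CPM in controls (log2 fold change 1.92, SE 0.162, adjusted p = 2.15e-04). Slc30a2 (ZnT2), which loads zinc into secretory vesicles, had 19.2, 21.6 and 17.7 CPM with doxycycline, against 88.4, 80.6 and 101 CPM in controls (log2 fold change -2.21, SE 0.171, adjusted p = 1.56e-04). The groups did not overlap in either gene; the Paneth cell markers, whose cells hold zinc in their granules, fell (4 of 4; summed level 31.2 to 34.8 CPM with doxycycline, 2171 to 4392 CPM in controls), and their part in the fall of Slc30a2 was not tested. Slc39a8 (ZIP8), an importer of zinc and manganese, fell (21.4 ± 0.37 CPM with doxycycline and 50.9 ± 5.25 CPM in controls; log2 fold change -1.25, adjusted p = 8.94e-04). Slc30a10, the manganese exporter, rose (201 ± 44.3 CPM with doxycycline and 64.4 ± 19.5 CPM in controls; log2 fold change 1.64, adjusted p = 0.00418). The basolateral importer Slc39a5 (50.5 ± 0.937 CPM with doxycycline and 38.7 ± 2.58 CPM in controls; adjusted p = 0.0626) and the zinc exporter Slc30a1 (197 ± 12.7 CPM with doxycycline and 136 ± 50.4 CPM in controls; adjusted p = 0.18) did not pass. They passed without control replicate 3, at log2 fold changes of 0.36 (adjusted p = 0.00368) and 0.27 (adjusted p = 0.00474), and with total counts Slc39a5 was at -0.060. The metallothionein genes Mt1 and Mt2, which bind zinc, had their high value in control replicate 3 alone (754 and 1043 CPM, against 211 to 249 CPM in the other controls) and did not pass.

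**Figure D3:**
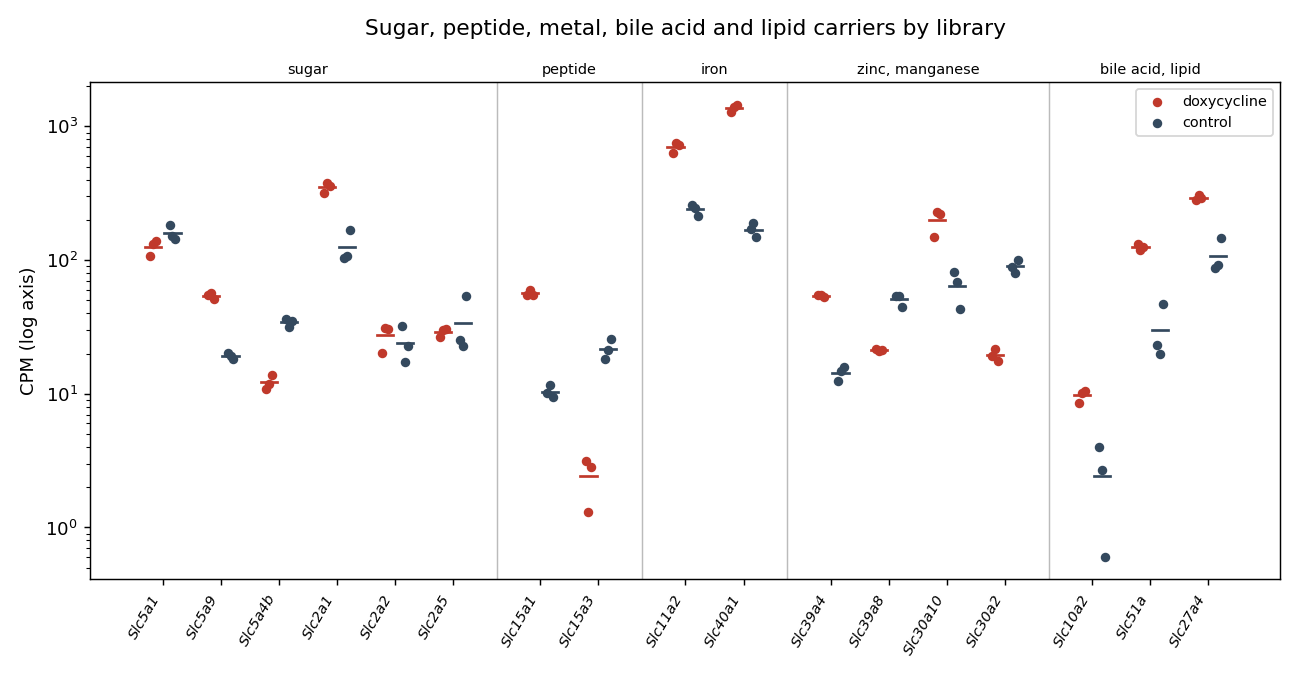
CPM on a log axis of sugar, peptide, iron, zinc, manganese, bile acid and lipid carriers in each library; points are libraries (doxycycline left of control for each gene) and bars are group means. Slc15a1, Slc11a2, Slc40a1 and Slc39a4 sit higher with doxycycline without overlap, Slc15a3 and Slc30a2 sit lower, and the points of Slc2a2 and Slc2a5 overlap.

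Of 29 carriers of inorganic ions, 12 rose (41.4%) and 6 fell (20.7%), against 21.7% and 23.6% of all genes (median 0.46). The rises include Slc12a4 and Slc8a3, which met the count minimum in the doxycycline libraries alone and so had to differ. With total counts as the scaling 7 rose and 8 fell at a median of 0.020, where 13.5% of all genes rose and 39.7% fell. Slc12a2 (NKCC1), the basolateral importer of sodium, potassium and chloride that feeds chloride secretion, had 136, 119 and 138 CPM with doxycycline, against 1277, 1255 and 659 CPM in controls. All controls lay far above (log2 fold change -3.02, SE 0.292, adjusted p = 3.88e-04). Other genes of chloride secretion, which are not carriers, fell too. The chloride channel Cftr had 73.8 ± 3.05 CPM with doxycycline and 156 ± 52.1 CPM in controls (log2 fold change -1.08, SE 0.27, adjusted p = 0.0162), a call lost without doxycycline replicate 1, 2 or 3 (adjusted p = 0.0649, 0.0721 and 0.0619). The basolateral potassium channel subunits Kcnq1 (82.8 ± 4.82 CPM with doxycycline and 232 ± 49.3 CPM in controls; log2 fold change -1.49, adjusted p = 0.00114) and Kcne3 (10.7 ± 1.62 CPM with doxycycline and 89.4 ± 24.8 CPM in controls; log2 fold change -3.06, adjusted p = 2.25e-04) fell, as did Kcnn4 (14.5 ± 1.39 CPM with doxycycline and 45.4 ± 5.24 CPM in controls). The secreted goblet cell protein Clca1 fell (1.24 ± 0.583 CPM with doxycycline and 13 ± 2.98 CPM in controls; log2 fold change -3.36, adjusted p = 8.29e-04), while the chloride channel Clcn2 rose (112 ± 1.62 CPM with doxycycline and 47.4 ± 12.5 CPM in controls; log2 fold change 1.25, adjusted p = 0.00344). Slc12a8, a member of the cation-chloride family, had 2.02, 1.76 and 2.61 CPM with doxycycline, against 32.8, 31.5 and 57.1 CPM in controls (log2 fold change -4.23, SE 0.336, adjusted p = 1.92e-04), with no overlap.

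Sodium and proton exchangers differed among themselves. Slc9a2 (NHE2), a brush border form, had 209.8, 281 and 285 CPM with doxycycline, against 58.3, 61.9 and 48.8 CPM in controls (log2 fold change 2.20, SE 0.197, adjusted p = 2.68e-04), with all doxycycline libraries higher. Slc9a3 (NHE3), another brush border form, had 18, 18.4 and 23.2 CPM with doxycycline, against 51.4, 48 and 23.8 CPM in controls, and was called lower (log2 fold change -1.05, SE 0.309, adjusted p = 0.030). That call was not made with any single library left out other than control replicate 3, at adjusted p of 0.0668 to 0.109. The scaffold Slc9a3r1, which holds NHE3 at the brush border and is not a carrier, had 2143, 2257 and 2143 CPM with doxycycline, against 346, 366 and 376 CPM in controls (log2 fold change 2.59, SE 0.152, adjusted p = 7.29e-05). The scaffold Pdzk1 rose too (45.3 ± 6.04 CPM with doxycycline and 17.3 ± 5.13 CPM in controls; log2 fold change 1.38, adjusted p = 0.00527). The scaffolds Slc9a3r2 (log2 fold change -0.37, adjusted p = 0.474) and Pdzd3 (log2 fold change -0.27, adjusted p = 0.41) did not pass.

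Of 4 named bicarbonate and chloride carriers, 2 rose and 2 did not pass, where 21.7% of all genes rose. Slc4a7 (NBCn1), which brings sodium and bicarbonate into the cell, had 1878, 1951 and 2096 CPM with doxycycline, against 441, 485 and 196 CPM in controls (log2 fold change 2.40, SE 0.346, adjusted p = 0.0018), with no overlap. Slc26a6, an apical exchanger of chloride for bicarbonate and oxalate, had 36.8, 38.5 and 40.1 CPM with doxycycline, against 13.8, 14.1 and 10.2 CPM in controls (log2 fold change 1.60, SE 0.187, adjusted p = 7.26e-04), again apart. Slc26a3 (DRA), the other apical chloride exchanger, had 40.7 ± 1.16 CPM with doxycycline and 53 ± 16 CPM in controls (SD, n = 3 each; adjusted p = 0.21), and Slc4a4, a basolateral sodium bicarbonate carrier, had 185 ± 19.1 CPM with doxycycline and 136 ± 56.8 CPM in controls (adjusted p = 0.307). The phosphate importer Slc34a2 rose at a low level (7.06 ± 0.679 CPM with doxycycline and 2.03 ± 0.278 CPM in controls; log2 fold change 1.80, adjusted p = 0.00143). Slc24a5, a calcium exchanger known from pigment cells, fell (11.4 ± 1.7 CPM with doxycycline and 32.8 ± 6.59 CPM in controls; log2 fold change -1.53, adjusted p = 0.00169), and 39.5% of its exons are shared with Myef2 on the opposite strand, which fell by 1.58 on the log2 scale.

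Atp1b1, a beta subunit gene of the sodium pump, which powers these carriers and is no carrier by the rule, had 3426, 3280.4 and 3339 CPM with doxycycline, against 1502, 1465 and 1279 CPM in controls (log2 fold change 1.24, SE 0.154, adjusted p = 9.05e-04). The groups did not overlap. Another beta subunit gene, Atp1b3, lay lower, with 89.7 ± 6.88 CPM with doxycycline and 118 ± 21.8 CPM in controls. Its groups did not overlap either, but it did not pass (adjusted p = 0.112). Of 25 measured partner genes in all, 8 rose (32%) and 6 fell (24%), against 21.7% and 23.6% of all genes (median log2 fold change -0.20). With total counts 6 rose and 9 fell. The others that did not pass included the carrier chaperone Bsg (772 ± 7.05 CPM with doxycycline and 606 ± 421 CPM in controls), whose highest value was in control replicate 3, and the glucose uptake regulator Txnip (223 ± 21.9 CPM with doxycycline and 241 ± 16 CPM in controls).

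Among 22 carriers of vitamins, nucleosides, choline and urea, 10 rose (45.5%) and 7 fell (31.8%), against 21.7% and 23.6% of all genes. The falls include Slc14a1 and Slc28a1, which met the count minimum in the controls alone and so had to differ. The class median was 0.45, and 0.0058 with total counts as the scaling. Nucleoside carriers split by gene. Slc28a2 (CNT2), a sodium-coupled importer of purine nucleosides, had 33.7, 40.2 and 34.4 CPM with doxycycline, against 2.69, 1.69 and 7.85 CPM in controls (log2 fold change 3.18, SE 0.533, adjusted p = 0.00335; 4.02 without control replicate 3). Its relative Slc28a3 (CNT3), which takes purine and pyrimidine nucleosides, had 2.43, 2.5 and 3.46 CPM with doxycycline, against 19.8, 18.2 and 14.3 CPM in controls (log2 fold change -2.63, SE 0.256, adjusted p = 3.58e-04). The equilibrative carrier Slc29a1 (ENT1) had 10.5, 7.4 and 5.94 CPM with doxycycline, against 42.5, 41.5 and 125 CPM in controls (log2 fold change -3.13, SE 0.516, adjusted p = 0.00313; -2.41 without control replicate 3). None of these 3 overlapped between groups. Slc29a2 (ENT2) fell (3.96 ± 0.925 CPM with doxycycline and 11.4 ± 3.54 CPM in controls; log2 fold change -1.53, adjusted p = 0.00789), and so did the pyrimidine nucleoside carrier Slc28a1 (1.08 ± 0.373 CPM with doxycycline and 5.69 ± 1.12 CPM in controls), which passed the count minimum through the controls alone and so had to differ. The lysosomal Slc29a3 had 37.5, 38.8 and 38.9 CPM with doxycycline, against 33.4, 36.3 and 18.6 CPM in controls, without overlap, and did not pass (adjusted p = 0.266). Slc28a1 and Slc29a3 were named after their values were seen.

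Folate carriers moved in opposite directions. Slc46a1, the proton-coupled folate carrier of the brush border, had 47.9, 54.4 and 53.5 CPM with doxycycline, against 16.8, 15.9 and 14.9 CPM in controls (log2 fold change 1.71, SE 0.154, adjusted p = 2.62e-04). Slc19a1, the reduced folate carrier of most cells, had 31.3, 28.2 and 32.2 CPM with doxycycline, against 109, 95.9 and 126 CPM in controls (log2 fold change -1.85, SE 0.169, adjusted p = 2.76e-04). The groups were apart in both. The thiamine carrier Slc19a3 rose (11.1 ± 1.44 CPM with doxycycline and 2.44 ± 0.782 CPM in controls; log2 fold change 2.18, adjusted p = 0.00162). Slc44a4, which carries thiamine pyrophosphate and choline, had 43.4, 50.1 and 44.5 CPM with doxycycline, against 8.19, 7.85 and 7.25 CPM in controls (log2 fold change 2.56, SE 0.166, adjusted p = 9.62e-05). Of family Slc23, whose members do not all carry ascorbate, Slc23a4 fell (3.77 ± 0.812 CPM with doxycycline and 24.2 ± 6.27 CPM in controls, log2 fold change -2.68, adjusted p = 5.23e-04). Slc23a2, an ascorbate importer named after its values were seen, rose (370.1 ± 39.4 CPM with doxycycline and 97.6 ± 48.6 CPM in controls, log2 fold change 1.92, adjusted p = 0.00913).

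**Figure D4:**
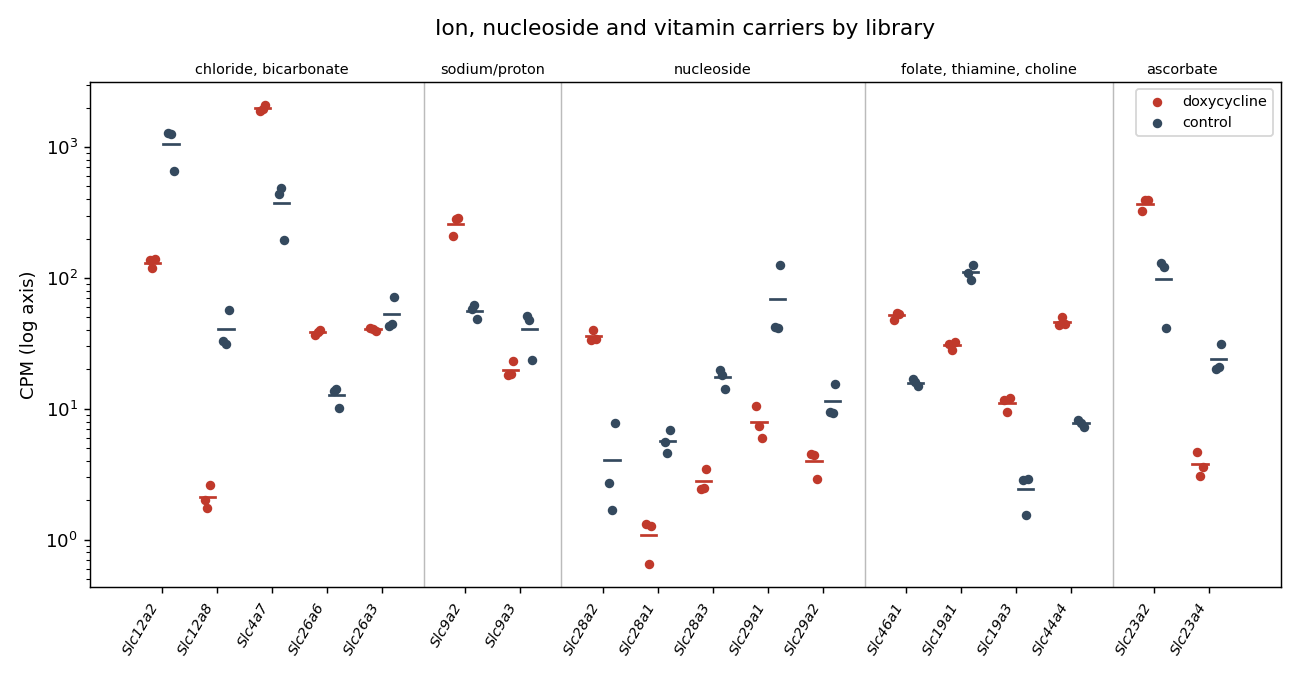
CPM on a log axis of ion, nucleoside, folate, thiamine, choline and Slc23 carriers in each library; points are libraries (doxycycline left of control for each gene) and bars are group means. In the group headed ascorbate, Slc23a2 is the ascorbate importer and Slc23a4 is placed by its family number alone. Of the 5 nucleoside carriers plotted, Slc28a2 lies higher with doxycycline (33.7 to 40.2 CPM, against 1.69 to 7.85 CPM) and the other 4 lie lower, and Slc12a2 and Slc4a7 lie apart in opposite directions.

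Carriers of organic ions, drugs and bile acids had 6 rises among 14 (42.9%) and no fall (median 1.03), against 21.7% and 23.6% of all genes. With total counts as the scaling 2 fell, where 39.7% of all genes fell. Without control replicate 3, 9 rose and 2 fell, where 34.9% of all genes rose and 35.1% fell. Slc10a2 (ASBT), the brush border bile acid importer best known from the ileum, had 8.49, 10.2 and 10.5 CPM with doxycycline, against 3.98, 2.69 and 0.604 CPM in controls. It rose (log2 fold change 1.95, SE 0.538, adjusted p = 0.0235), a call not made without doxycycline replicate 1 (0.0591), 2 (0.0738) or 3 (0.0749) or without control replicate 2 (0.0539), where the figures are adjusted p. Slc51a, one subunit of the basolateral bile acid exporter, had 131, 119 and 125 CPM with doxycycline, against 23, 19.7 and 47.3 CPM in controls (log2 fold change 2.06, SE 0.342, adjusted p = 0.0032). Its exons are shared to 17.7% with Pcyt1a on the opposite strand, which also rose (log2 fold change 2.85). Slc51b, the other subunit, was at 1.8 ± 0.608 CPM with doxycycline and 1.68 ± 0.99 CPM in controls and did not pass (adjusted p = 0.842). The ergothioneine and carnitine family member Slc22a4 rose (21 ± 1.58 CPM with doxycycline and 6.57 ± 1.22 CPM in controls; log2 fold change 1.67, adjusted p = 0.00106), and so did Slc22a23, whose substrate is not known (489 ± 30.8 CPM with doxycycline and 110.3 ± 34.6 CPM in controls; log2 fold change 2.15, adjusted p = 0.00101).

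Monocarboxylate and carboxylate carriers had a median of -0.47, with 2 of 12 higher (16.7%) and 4 lower (33.3%), against 21.7% and 23.6% of all genes. The falls include Slc13a2, which met the count minimum in the controls alone and so had to differ. Without control replicate 3, 2 were higher and 10 lower, where 34.9% of all genes rose and 35.1% fell. Slc16a3 (MCT4), the lactate exporter of glycolytic cells, had 272, 375 and 357 CPM with doxycycline, against 169.8, 144 and 173 CPM in controls (log2 fold change 1.04, SE 0.186, adjusted p = 0.00409). Slc16a5, a carrier of the same family, rose (176 ± 19 CPM with doxycycline and 64.3 ± 4.07 CPM in controls; log2 fold change 1.46, adjusted p = 5.57e-04). The creatine carrier Slc16a12 had 4.35, 2.68 and 3.39 CPM with doxycycline, against 47.4, 42.2 and 14.9 CPM in controls (log2 fold change -3.33, SE 0.477, adjusted p = 0.00175), so that it and Slc6a8, which also carries creatine, moved in opposite directions. Slc16a1 (MCT1), the carrier of lactate and short-chain fatty acids, had 229, 209 and 218 CPM with doxycycline, against 264, 278 and 164 CPM in controls and overlapped between groups (adjusted p = 0.722; log2 fold change -0.30 and adjusted p = 0.00148 without control replicate 3, and 0.031 without control replicate 2). The sulfate carrier Slc13a1 fell (15 ± 1.25 CPM with doxycycline and 28.8 ± 2.53 CPM in controls; log2 fold change -0.94, adjusted p = 0.00408).

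Of 5 lipid carriers, Slc27a4, which activates long-chain fatty acids for uptake, had 279.7, 309 and 290.5 CPM with doxycycline, against 87.6, 92 and 145 CPM in controls (log2 fold change 1.44, SE 0.231, adjusted p = 0.00282), with no overlap. The fall of Slc27a1 (19.9 ± 0.661 CPM with doxycycline and 34.6 ± 8.92 CPM in controls; log2 fold change -0.80, adjusted p = 0.0218) and the rise of Slc33a1, the acetyl-CoA carrier of the endoplasmic reticulum (189 ± 17.6 CPM with doxycycline and 94.8 ± 35.4 CPM in controls; log2 fold change 0.99, adjusted p = 0.0341), were lost on leaving out any 1 doxycycline library (adjusted p of 0.0731 to 0.106). The rise of Slc33a1 was not called with total counts either (adjusted p = 0.161).

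The 33 carriers of nucleotide sugars and other organelle substrates had 12 rises (36.4%) and 4 falls (12.1%) with a median of 0.028. Of all genes, 21.7% rose and 23.6% fell. With total counts as the scaling 6 rose and 13 fell at a median of -0.41, where 13.5% of all genes rose and 39.7% fell. Without control replicate 3 the counts were 14 and 9 at a median of -0.086, where 34.9% of all genes rose and 35.1% fell. Slc35d1, which brings UDP-glucuronate and UDP-N-acetylgalactosamine into the endoplasmic reticulum, had 679.6, 635 and 635 CPM with doxycycline, against 136, 152 and 94.2 CPM in controls (log2 fold change 2.35, SE 0.217, adjusted p = 3.19e-04). Slc35f5 and Slc35e4, family members whose substrates are not known, rose with no overlap (188 ± 2.83 CPM with doxycycline and 43.9 ± 9.48 CPM in controls, and 76 ± 5.62 CPM with doxycycline and 10.7 ± 3.49 CPM in controls; log2 fold changes 2.10 and 2.83). Slc35a1, the CMP-sialic acid carrier of the Golgi, fell (17.2 ± 0.806 CPM with doxycycline and 33.1 ± 11.1 CPM in controls; log2 fold change -0.95, adjusted p = 0.0226), as did Slc35f2 (25.9 ± 2.12 CPM with doxycycline and 38.7 ± 2.89 CPM in controls; log2 fold change -0.58, adjusted p = 0.0209). Both calls were lost with any doxycycline library left out, and that of Slc35f2 also without control replicate 2, at adjusted p of 0.0653 to 0.105.

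Leaving out control replicate 3 kept the calls of all 117 carriers and added 45, as the plot of changes with and without that library shows. Of the carriers not called with 6 libraries, 10 changed sign.

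**Figure D5:**
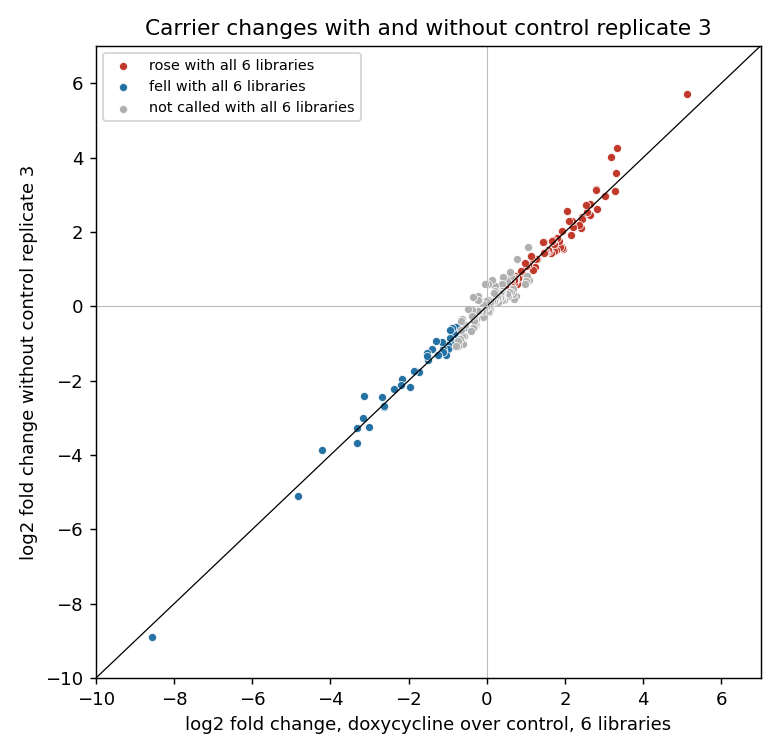
log2 fold change of doxycycline over control for the 204 carriers, fitted with all 6 libraries (horizontal) and without control replicate 3 (vertical); each point is a gene and the line marks equal values. All 117 called carriers keep their sign; Slc28a2 lies above the line (3.18 with all libraries, 4.02 without) and Slc29a1 moves nearer to 0 (-3.13 and -2.41).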

How the data were processed

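The deposited table holds whole-number read counts per Entrez gene, 1 column for each of the 6 libraries. Per the labels' protocols, total RNA was made into TruSeq RNA libraries for a NextSeq sequencer. The submitters' processing notes name the build mm10. How reads were aligned and counted, the annotation and the strand setting are not given in the sources used here. Overlapping genes and close copies are therefore uncertain. RefSeq's GRCm38.p6 gene table gave symbols for 24570 IDs; the other 24 held 2.88 to 4.43% of a library's counts.

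Genes kept by edgeR 4.0.16's filter (12909) were scaled by TMM and tested with its robust quasi-likelihood F-test (R 4.3.3), comparing doxycycline with control. P-values were adjusted by Benjamini-Hochberg over all genes tested, at a threshold of 0.05; each SE is the fold change over the root of F. GENCODE M21 gave merged exon lengths and overlaps. The members, lists and tests were chosen with earlier results of these data known. Named were 43 reported carriers of a fixed list of 44, the 15 largest rises and falls with a mean of at least 5 CPM and no overlap, up to 2 rises and 2 falls per class by adjusted p, and called partner genes (74 carriers, 14 partners). A few of these genes are counted but not reported here by name. Whether replicate numbers pair the libraries is not known, and the main fit used no pairing. Alternatives included DESeq2 1.42.0 and limma-voom 3.58.1.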

Additional observations from a re-analysis of the deposited data

How the results depend on the processing

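The 117 calls among carriers were 76 rises and 41 falls. Total counts as the only scaling gave 52 and 64, and a test by edgeR of changes beyond 2-fold gave 37 and 18, with 3 partner genes higher and 2112 genes called in all. At a threshold of 0.01, 3477 genes were called. With single libraries left out, all genes called numbered 3836 to 9286, carriers that rose 59 to 101 and carriers that fell 28 to 61; the highest values came without control replicate 3. DESeq2 gave 85 and 42, limma-voom 79 and 41, RLE factors 77 and 41, and no filter on low counts 72 and 40. Of the 184 members with at least 50 counts, 70 rose and 37 fell. Over all genes, DESeq2 called 3329 higher and 3462 lower, and limma-voom 2971 and 2942. RLE factors called 2870 and 2972 of all genes, and no filter on low counts 2862 and 3047. No called carrier changed sign in any of these settings.

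Same-numbered libraries did not deviate together (correlations -0.30, 0.12 and -0.19 for replicates 1, 2 and 3). With control replicate 3 apart from the other controls, these values cannot settle whether the numbers pair the libraries. With the replicate block 60 carriers rose and 32 fell, and 4509 genes were called. Among the carriers of the naming rule that were not called, 4 turned sign with total counts: Slc3a2 (-0.051), Slc2a2 (-0.27), Slc51b (-0.30) and Slc39a5 (-0.060). Slc29a3, named after its values were seen, turned too (-0.062). With single libraries left out the log2 fold change ran from -0.30 to 0.031 for Slc16a1, -0.011 to 0.45 for Slc2a2, -0.13 to 0.70 for Slc51b and -0.44 to 0.29 for Slc2a5. The cause was not tested. Genes near 20 counts a library were measured with the least precision.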

Other observations

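Of the 332 carriers by the rule, 128 fell short of the count minimum and 43 of these had 0 counts in all libraries. Among those with counts, the sodium and calcium exchanger Slc8a1 had 4, 6 and 9 counts in the doxycycline libraries and 52, 18 and 14 in the controls. The glucose carrier family member Slc2a10 had 4, 6 and 4 counts with doxycycline and 43, 35 and 14 in controls. The glucose carrier Slc2a3, one of the fixed genes, had at most 4 counts in any library. The partner gene Cltrn, a chaperone of amino acid carriers, held 13, 6 and 0 counts with doxycycline and 0, 2 and 4 in controls.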
